A study of Mus musculus with 7 samples.

Results

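Transcripts of beta-catenin, of the partners it meets at cell junctions and of the complex that destroys it were measured in 7 libraries of cultured fetal mouse kidney. The members were 9 genes of 22363 in the tables, taken by symbol: Ctnnb1, Jup, Ctnna1, Apc, Axin1, Csnk1a1, Gsk3a, Gsk3b and Btrc. Each had 1 entry per table, so no entries had to be summed. Of the libraries, 3 were beta-catenin activated and E2-2 deleted and 4 were beta-catenin activated and E2-2 wildtype, all of the strain C57BL/6. Both genotypes carried activated beta-catenin, so no library shows the pathway at its normal setting. Dams were given tamoxifen (2 mg for each 40 g they weighed) at 10.5 dpc, days post coitum, and the kidneys were taken at 10.5 dpc and cultured for 3 to 4 days. The labels give neither the activating allele, nor the Cre line, nor the deleted exons of E2-2, and culture time is not given library by library. Nor do they tie a library to its own animal or culture: the p-values below rest on the spread between these samples, and that spread may be technical.

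Beta-catenin has a pair of roles. At the membrane it links cadherins, through alpha-catenin, to actin, and in the nucleus it binds TCF/LEF factors and switches on Wnt target genes. Free beta-catenin is held by the scaffolds Apc and Axin, marked by casein kinase 1 alpha and then by glycogen synthase kinase 3, tagged with ubiquitin by the ligase whose receptor is beta-TrCP, and degraded. The pathway is thus set mainly by the stability of the beta-catenin protein, which transcript levels do not measure. In the embryonic kidney, Wnt signals through beta-catenin renew nephron progenitors and start nephron formation. E2-2, encoded by Tcf4, is a basic helix-loop-helix factor of the E protein class and is distinct from the TCF/LEF factors.

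Levels are given as FPKM, a fragment number set against transcript length and against the mapped total of its library, which allows genes of different length to be compared. Differences are E2-2 deleted minus E2-2 wildtype on the log2(FPKM + 1) scale, tested by limma over the 13469 genes with a mean of at least 1 FPKM, with Benjamini-Hochberg adjustment and a threshold of 0.05. All 9 members were among the genes tested. Tcf4, which encodes E2-2, was at 33.5, 41.7 and 42.0 FPKM in the E2-2 deleted libraries, against 48.8, 58.1, 28.7 and 39.2 FPKM in the E2-2 wildtype libraries, so the genotypes overlapped in its whole-gene level. That level cannot show whether exons were deleted, so it does not check the labels, and deleted and wildtype are used below as the labels give them. The inferred depth was 14.6 to 26.6 M (mega-fragments) per library. The distance between a pair of libraries was taken as the median absolute difference in log2(FPKM + 1) over the genes tested, without sign. The median distance of a library to the other 6 was 0.331 for E2-2 deleted replicate 2 and 0.228 for E2-2 wildtype replicate 3. It was 0.154 to 0.195 for the other 5 libraries. The name of each deposited table carries a prefix, BM for 3 libraries (1 deleted, replicate 3, and 2 wildtype, replicates 3 and 4) or BI for 4; the labels do not explain it. Markers of nephron progenitors and of the ureteric bud, 7 of 7 in each list, had a mean of at least 1 FPKM, as had 3 of 3 for renal stroma. The progenitor gene Six2 was at 2.69 FPKM in E2-2 deleted replicate 2 and at 29.0 to 74.8 FPKM in the other 6 libraries. The progenitor markers summed to 324, 74.1 and 216 FPKM in the deleted libraries, against 264, 177, 304 and 379 FPKM in the wildtype libraries. The ureteric bud markers summed to 218, 82.6 and 181 FPKM in the deleted libraries, against 214, 185, 89.9 and 245 FPKM in the wildtype libraries. The part of these cells in the levels below was not tested.

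None of the 9 members differed between the genotypes past the threshold. By limma, 0 of 13469 genes passed (0%), 605 had an unadjusted p under 0.05, and the adjusted p of the members lay between 0.795 and 0.995. The largest difference was that of Ctnnb1 itself, which was higher in the deleted libraries by 0.33. The other 8 members differed by -0.13 (Axin1) to 0.14 (Apc). The median difference of the members was 0.0092, with 5 positive and 4 negative, against a median of -0.051 over all genes tested; with median-of-ratios scaling Csnk1a1 and Btrc were also positive. Most members varied little from library to library. The residual SD of the fit was 0.0729 (Csnk1a1) to 0.197 (Jup), in all 9 below the median of 0.214 over all genes tested, which include low genes. The median of the members was 0.129, against 0.195 over the 10438 genes with a mean of at least 5 FPKM. Every member reaches that mean, and Jup alone was above that median.

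**Figure D1:**
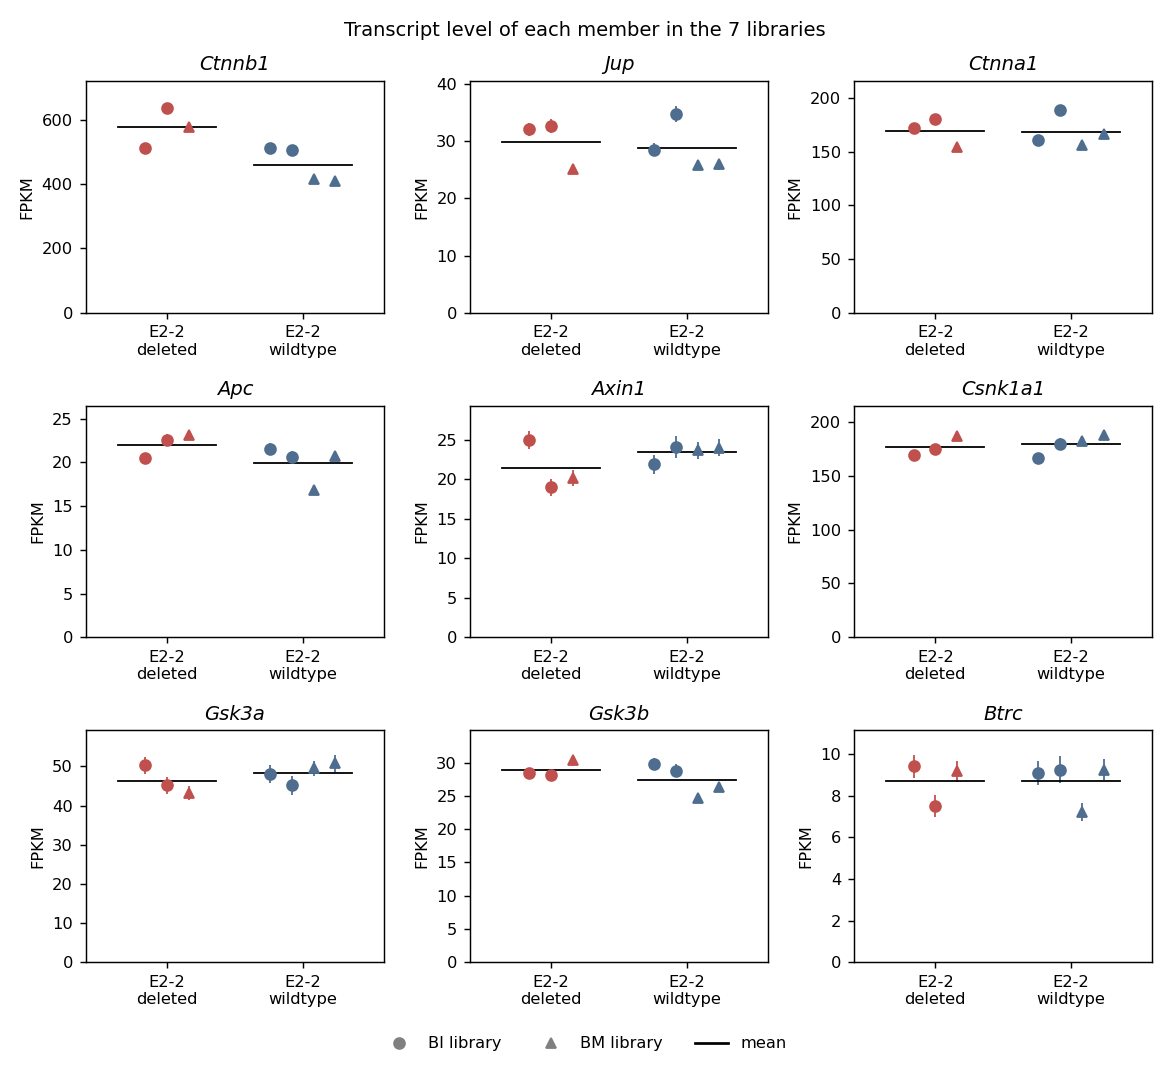
FPKM of each of the 9 members in the 3 E2-2 deleted (red) and 4 E2-2 wildtype (blue) libraries, 1 point per library, with the interval the authors deposited (often smaller than the point) and the group mean as a line; circles are BI and triangles BM libraries. The groups overlap in 8 of the 9 panels; in the panel of Ctnnb1 the lowest deleted library (512 FPKM) lies just above the highest wildtype library (511 FPKM).

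Ctnnb1, which encodes beta-catenin, was among the most abundant transcripts. The deposited tables place it on chromosome 9, 120842517 to 120869625, on a genome build that they do not name; here and below, positions are as deposited, with no statement of whether the start is counted from 0 or 1. Its level was 512, 636 and 579 FPKM in E2-2 deleted replicates 1 to 3, against 511, 507, 415 and 408 FPKM in E2-2 wildtype replicates 1 to 4. Deleted replicates 2 and 3 were above all 4 wildtype libraries, whereas deleted replicate 1 was level with wildtype replicates 1 and 2: the gap between 512 and 511 FPKM is smaller than the deposited interval of either value, which reaches 0.932% to 1.28% of the level to each side. The means were 576 ± 62.0 FPKM (SD, n = 3) in the deleted and 460 ± 56.2 FPKM (SD, n = 4) in the wildtype libraries, a ratio of 1.25. The difference of 0.33 (SE 0.18, 95% confidence interval -0.10 to 0.75) did not pass the threshold (limma adjusted p = 0.795, limma unadjusted p = 0.115). The exact 2-sided permutation p was 0.114, where the smallest that 35 splits allow is 0.0286. The difference of Ctnnb1 was 0.17 within the BI libraries and 0.49 within the BM libraries, where a single deleted library stands against a pair of wildtype libraries. Ctnnb1 was the 1 member of 9 whose deleted libraries all exceeded the wildtype ones, a pattern found in 2.84% of the genes tested. The opposite pattern, found in 2.05% of the genes tested, was seen in 0 members. Whole-gene FPKM does not show whether an exon has been removed, so these values do not check the activated allele.

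**Figure D2:**
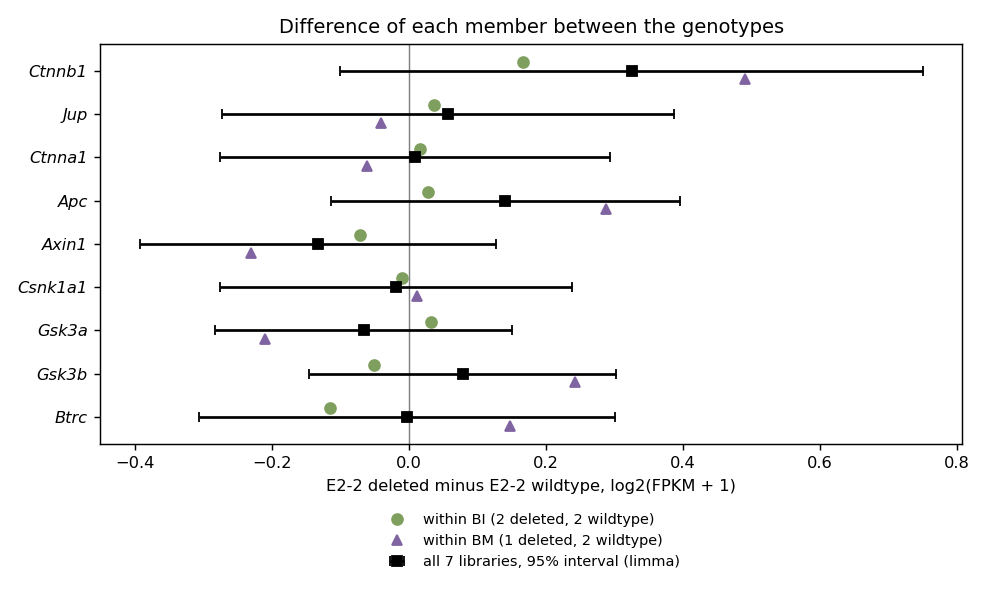
Difference of each member, E2-2 deleted minus E2-2 wildtype, on the log2(FPKM + 1) scale: squares with bars are the values over all 7 libraries with the 95% confidence interval of limma, circles the differences within BI and triangles those within BM. All 9 intervals span 0, and the value of Ctnnb1 (0.33) is the furthest from it.

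The summed levels of melanocyte and of tooth and bone markers did not overlap between the genotypes, the melanocyte sums by 26.6 against 25.7 FPKM. Singly, only 4 of 7 melanocyte and 3 of 8 tooth and bone markers had every deleted library above every wildtype library. So had 1 of 4 endothelial markers, no other listed marker, and 2.84% of the genes tested. The summed level of 7 melanocyte markers was 26.6 to 96.4 FPKM in the deleted and 3.96 to 25.7 FPKM in the wildtype libraries, and that of 8 tooth and bone markers, 5 of them at a mean of at least 1 FPKM and Amtn listed at 0 in all libraries, was 43.1 to 91.5 FPKM against 4.86 to 39.7 FPKM. Macrophage markers (4 genes) summed to 38.1 to 82.2 FPKM in the deleted and 30.8 to 84.9 FPKM in the wildtype libraries, and endothelial markers (4 genes) to 172 to 250 FPKM and 123 to 299 FPKM. Neuronal markers (4 genes) summed to 30.1 to 163 FPKM in the deleted and 22.7 to 122 FPKM in the wildtype libraries, and erythroid markers (3 genes) to 7.83 to 410 FPKM and 37.5 to 197 FPKM. Muscle markers were near 0, with 1 of 6 at a mean of at least 1 FPKM. Podocyte markers (3 genes) summed to 19.3 to 28.8 FPKM in the deleted and 7.18 to 67.7 FPKM in the wildtype libraries. The part of any of these cells in the level of Ctnnb1 was not tested, and in whole cultures fewer cells of a type and less RNA per cell cannot be told apart.

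Jup encodes plakoglobin, or gamma-catenin, the close relative of beta-catenin that sits in desmosomes and in adherens junctions. On chromosome 11 (100230169 to 100259104), it was at 32.1, 32.6 and 25.2 FPKM in the deleted libraries, against 28.5, 34.8, 25.8 and 26.0 FPKM in the wildtype libraries. The genotypes overlapped throughout, and the low values were those of the BM libraries of both genotypes. Its difference between genotypes was 0.057 (95% confidence interval -0.27 to 0.39, SE 0.14; adjusted p by limma = 0.913, exact permutation p = 0.714). With the name prefix in the fit, BM libraries were lower than BI libraries by a difference of -0.30. Jup was the 1 member with every BM library below every BI library, as were 1.14% of the genes tested.

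Ctnna1 encodes alpha-catenin, which joins beta-catenin and plakoglobin to actin. On chromosome 18 (35278565 to 35414429), it was at 172, 180 and 154 FPKM in the deleted libraries, against 161, 189, 156 and 166 FPKM in the wildtype libraries. The means of 169 ± 13.2 FPKM (SD, n = 3) and 168 ± 14.5 FPKM (SD, n = 4) differed by less than the spread between libraries (difference 0.0092, 95% confidence interval -0.28 to 0.29, SE 0.12; adjusted p by limma = 0.982). Exact permutation gave p = 0.971.

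The scaffolds Apc and Axin1, which hold beta-catenin and its kinases together, had differences of opposite sign, and neither passed the test. Apc (chromosome 18, 34380637 to 34481844) was at 20.5, 22.5 and 23.1 FPKM in the deleted libraries, against 21.5, 20.6, 16.9 and 20.7 FPKM in the wildtype libraries. Wildtype replicate 3 was the lowest, and the other 6 libraries lay within 20.5 to 23.1 FPKM. The difference was 0.14 (95% confidence interval -0.11 to 0.40, SE 0.11; adjusted p by limma = 0.795, exact permutation p = 0.229), with 0.027 within BI and 0.29 within BM, and it was 0.067 without wildtype replicate 3.

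Axin1, the scaffold whose amount is thought to limit the complex, lies on chromosome 17 (26275630 to 26332756). Its level was 25.0, 19.0 and 20.2 FPKM in the deleted libraries, against 21.9, 24.1, 23.7 and 24.0 FPKM in the wildtype libraries. Deleted replicates 2 and 3 were below all 4 wildtype libraries, and deleted replicate 1 was above them all. The difference was -0.13 (95% confidence interval -0.39 to 0.13, SE 0.11; adjusted p by limma = 0.795, exact permutation p = 0.257). It was -0.25 without deleted replicate 1 and -0.056 without deleted replicate 2. The same 2 libraries that were high in Ctnnb1 were thus low in Axin1, and the FPKM ratio of Ctnnb1 to Axin1 was 20.5, 33.5 and 28.7 in the deleted libraries, against 23.3, 21.0, 17.5 and 17.0 in the wildtype libraries.

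Of the kinases, Csnk1a1, which places the priming phosphate on beta-catenin, was the steadiest member. On chromosome 18 (61715235 to 61747953), it was at 169, 174 and 187 FPKM in the deleted libraries, against 166, 180, 182 and 188 FPKM in the wildtype libraries. The highest library was 1.13 times the lowest, and the difference between genotypes was -0.018 (95% confidence interval -0.27 to 0.24, SE 0.11; adjusted p by limma = 0.964, exact permutation p = 0.743). The 3 BM libraries were above the 4 BI libraries, as in 7.17% of the genes tested; with prefix in the fit, the difference of BM from BI was 0.11.

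The glycogen synthase kinase 3 genes Gsk3a and Gsk3b, whose products phosphorylate beta-catenin once it is primed, did not differ past the threshold either. Gsk3a (chromosome 7, 26013277 to 26022870) was at 50.3, 45.2 and 43.3 FPKM in the deleted libraries, against 48.0, 45.2, 49.6 and 50.8 FPKM in the wildtype libraries, a difference of -0.066 (95% confidence interval -0.28 to 0.15, SE 0.094; adjusted p by limma = 0.841, exact permutation p = 0.371). Gsk3b (chromosome 16, 38089086 to 38246165) was at 28.4, 28.1 and 30.4 FPKM in the deleted libraries, against 29.8, 28.8, 24.7 and 26.3 FPKM in the wildtype libraries, a difference of 0.079 (95% confidence interval -0.14 to 0.30, SE 0.097; adjusted p by limma = 0.823, exact permutation p = 0.371). The genotypes overlapped in both genes, and both differences turned sign between the prefixes: Gsk3a differed by 0.032 within BI and -0.21 within BM, Gsk3b by -0.051 within BI and 0.24 within BM. The FPKM ratio of Gsk3a to Gsk3b was above 1 in every library, at 1.77, 1.61 and 1.42 in the deleted and 1.61, 1.57, 2.00 and 1.93 in the wildtype libraries. Deleted replicate 3 had the lowest ratio and the BM wildtype libraries the highest.

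Btrc encodes beta-TrCP, the receptor through which the SCF ubiquitin ligase finds phosphorylated beta-catenin, and was the least abundant member. On chromosome 19 (45438223 to 45607833), it was at 9.42, 7.50 and 9.18 FPKM in the deleted libraries, against 9.11, 9.27, 7.22 and 9.26 FPKM in the wildtype libraries. Each genotype had 1 low library, deleted replicate 2 and wildtype replicate 3, which are the libraries that stand apart over all genes, and the other 5 lay within 9.11 to 9.42 FPKM. The difference was -0.0025 (95% confidence interval -0.31 to 0.30, SE 0.13; adjusted p by limma = 0.995, exact permutation p = 1). Btrc had 811 to 1372 inferred fragments per library and a deposited interval of 5.40% to 7.02% to each side, the widest of the members.

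The order of the levels was the same at its ends in both genotypes. Averaged over the 7 libraries, Ctnnb1 stood at 510 FPKM, above 99.6% of the genes tested, and its lowest library was above the highest library of any other member. Csnk1a1 (178 FPKM) and Ctnna1 (168 FPKM) followed and were not separated, since Csnk1a1 was the higher in 4 of 7 libraries. Gsk3a (47.5 FPKM) stood alone. Jup (29.3 FPKM) and Gsk3b (28.1 FPKM) were not separated, with Jup the higher in 4 of 7 libraries. Gsk3b was above Axin1 (22.6 FPKM) in all 7 libraries although their ranges overlapped, Axin1 was above Apc (20.8 FPKM) in 5 of 7, and Btrc (8.71 FPKM) was below all others in every library.

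**Figure D3:**
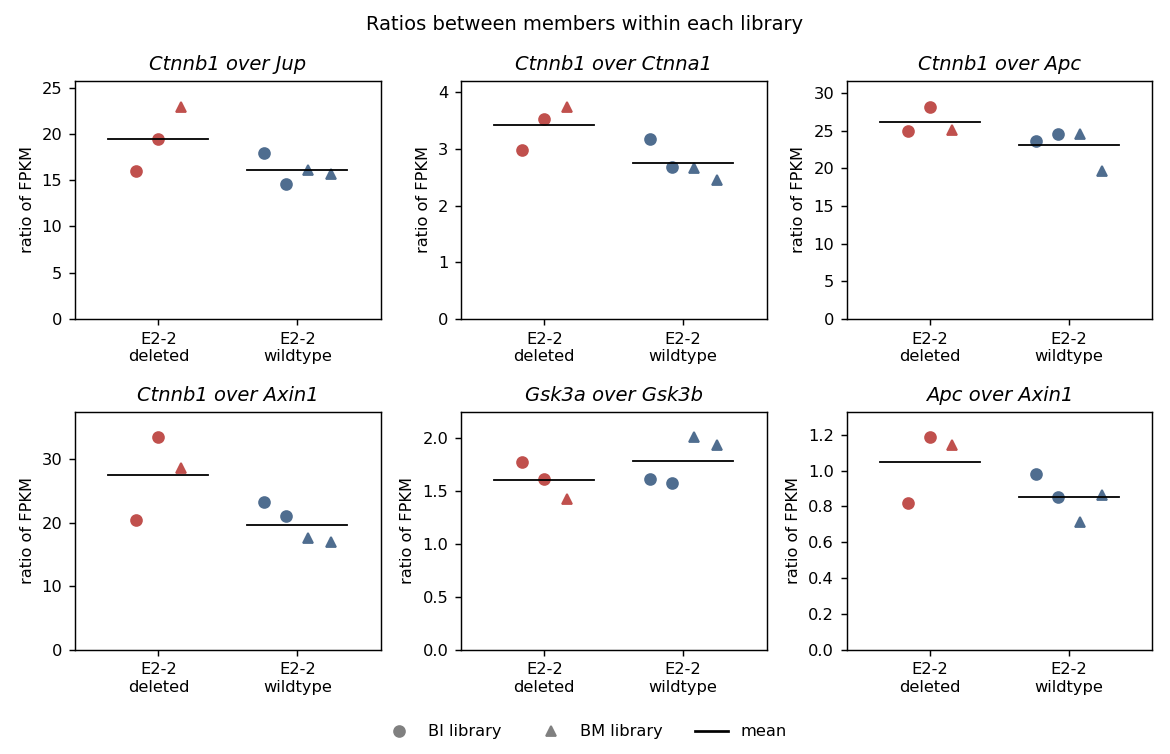
Ratio of the FPKM of 2 members within each library, for the 3 E2-2 deleted (red) and 4 E2-2 wildtype (blue) libraries, with the group mean as a line; circles are BI and triangles BM libraries. Ctnnb1 over Jup spans 15.96 to 23.0 in the deleted and 14.6 to 17.9 in the wildtype libraries, and the groups overlap in 5 of the 6 panels.

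Ratios within a library do not depend on its scaling. The FPKM ratio of Ctnnb1 to Jup was 15.96, 19.5 and 23.0 in the deleted libraries, against 17.9, 14.6, 16.1 and 15.7 in the wildtype libraries, and that of Ctnnb1 to Ctnna1 was 2.98, 3.53 and 3.75 against 3.18, 2.69, 2.66 and 2.45. In both ratios deleted replicates 2 and 3 were above all wildtype libraries and deleted replicate 1 was not. The ratio of Ctnnb1 to Apc was 25.0, 28.2 and 25.1 in the deleted libraries, against 23.7, 24.6, 24.6 and 19.7 in the wildtype libraries. These did not overlap, by 25.0 against 24.6. That gap is smaller than the deposited interval of Apc, which reaches 2.40% to 3.30% of the level to each side. How often ratios of other genes do not overlap was not counted. The ratio of Apc to Axin1 was 0.818, 1.19 and 1.14 in the deleted libraries, against 0.983, 0.854, 0.714 and 0.864 in the wildtype libraries. These ratios were not tested, since each is made from members already compared.

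The promoter sequences of 4 members were read from RefSeq (GRCm38.p6), 300 bases from 250 before to 50 after the gene's start, because E proteins such as E2-2 bind E-boxes and beta-catenin acts through TCF/LEF sites. The motifs searched, on both strands, were CANNTG for any E-box, which includes the E protein forms CAGCTG and, counted on either strand, CAGGTG, with its reverse complement CACCTG. For the TCF/LEF core the letters were CTTTGA, which the opposite strand reads as TCAAAG. Capitals mark a motif and all other bases are in lower case. The windows are chr9:120933150-120933449 on the plus strand for Ctnnb1 (the upstream one of its starts), chr11:100397741-100398040 on the minus strand for Jup, chr7:25237802-25238101 on the minus strand for Gsk3a and chr16:38088751-38089050 on the plus strand for Gsk3b.
Ctnnb1: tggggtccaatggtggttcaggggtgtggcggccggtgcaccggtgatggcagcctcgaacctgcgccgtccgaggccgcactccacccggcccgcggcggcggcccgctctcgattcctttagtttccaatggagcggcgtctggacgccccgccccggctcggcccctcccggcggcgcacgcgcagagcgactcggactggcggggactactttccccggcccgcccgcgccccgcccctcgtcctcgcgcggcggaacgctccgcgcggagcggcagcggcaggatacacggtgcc
Jup: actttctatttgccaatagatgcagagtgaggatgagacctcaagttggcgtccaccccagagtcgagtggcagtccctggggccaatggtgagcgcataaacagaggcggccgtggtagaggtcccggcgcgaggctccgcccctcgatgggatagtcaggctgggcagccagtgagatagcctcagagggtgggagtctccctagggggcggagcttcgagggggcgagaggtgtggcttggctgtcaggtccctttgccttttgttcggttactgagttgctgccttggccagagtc
Gsk3a: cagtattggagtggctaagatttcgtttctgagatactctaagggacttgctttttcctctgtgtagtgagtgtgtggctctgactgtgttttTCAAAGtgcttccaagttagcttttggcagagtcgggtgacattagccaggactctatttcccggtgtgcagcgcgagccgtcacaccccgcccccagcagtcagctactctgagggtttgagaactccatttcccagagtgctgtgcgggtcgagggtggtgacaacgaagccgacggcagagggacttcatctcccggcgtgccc
Gsk3b: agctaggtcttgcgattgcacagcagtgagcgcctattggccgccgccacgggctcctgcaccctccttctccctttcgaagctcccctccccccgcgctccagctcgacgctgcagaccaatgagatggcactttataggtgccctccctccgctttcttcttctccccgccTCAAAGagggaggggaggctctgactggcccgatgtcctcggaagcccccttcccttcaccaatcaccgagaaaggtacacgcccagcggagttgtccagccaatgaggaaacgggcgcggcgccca
No E-box lies in any of these 4 windows, nor in the window of the second start of Ctnnb1, whereas 72.3% of 32851 RefSeq promoter windows of this length hold one and 32.9% hold one of the E protein forms. Ctnna1, Apc, Axin1, Csnk1a1 and Btrc were not searched, so this does not describe the members as a set. A TCF/LEF core lies in the windows of Gsk3a (at base 94, counted from the 5′ end of the window) and Gsk3b (at base 174), and in 5257 of the 32851 windows. The Ctnnb1 window has a GC content of 75.3%, that of Jup 60.7%, against a median of 52.7% over all windows. A match is no binding site, and the absence of these letters from a window says nothing of a factor's action elsewhere.

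The pattern of Ctnnb1 over the 7 libraries was shared most closely by Adcy9, Atp6ap2, Hecw2, Grina and Nav1. Likeness was the root-mean-square difference between log2(FPKM + 1) profiles, each centred on its own mean over the 7 libraries. It was 0.0586 for Adcy9, an adenylyl cyclase gene, and 0.0596 for Atp6ap2, which encodes the prorenin receptor, an accessory protein of the proton pump. Hecw2, a ubiquitin ligase gene, was at 0.0609, Grina at 0.0626 and Nav1, a microtubule-binding protein gene, at 0.0652, where the median over all genes tested was 0.323. Adcy9 (1.61 to 2.86 FPKM) and Hecw2 (1.95 to 3.59 FPKM) were low. At such levels the 1 FPKM added before the logarithm narrows the profile, so their likeness depends partly on the scale. Atp6ap2 was at 57.2, 79.8 and 65.2 FPKM in the deleted libraries, against 59.2, 59.3, 49.7 and 50.7 FPKM in the wildtype libraries. Like Ctnnb1 it was highest in deleted replicate 2 and lowest in the BM wildtype libraries. Among the members, Apc (0.145) and Gsk3b (0.161) were the nearest to Ctnnb1, and Axin1 (0.327) was the furthest, with 51.2% of the genes tested nearer than it. These genes were picked for likeness, so their resemblance is a description and was not tested.

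**Figure D4:**
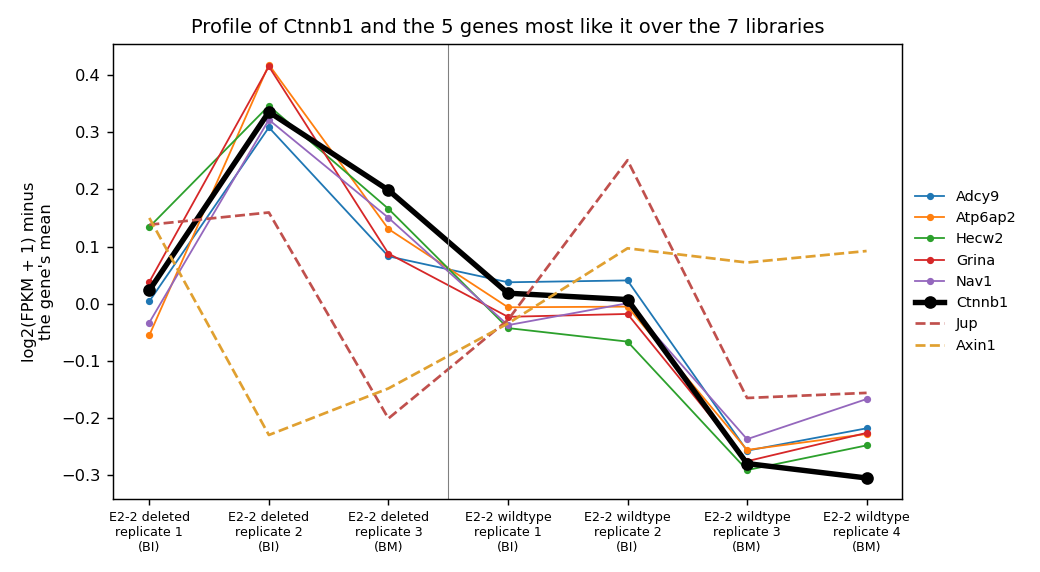
log2(FPKM + 1) of Ctnnb1 (thick black line), the 5 genes most like it (thin lines) and the members Jup and Axin1 (dashed) in the 7 libraries, each gene minus its own mean; lines only join the points of a gene, and the grey bar parts E2-2 deleted from E2-2 wildtype libraries. Ctnnb1 peaks in deleted replicate 2 (636 FPKM), where Axin1 is at its lowest (19.0 FPKM).

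Other genes of beta-catenin turnover, junctions and nuclear action were described in 8 lists by role, 86 genes of which 80 were tested. By limma 0 of the 80 were past the threshold in either direction (0% of all genes tested), 32 had a positive and 48 a negative difference, and the median was -0.035, against -0.051 over all genes tested. With median-of-ratios scaling the median over all genes tested was -0.0043, and those of the casein kinase (0.024), adherens junction (0.020) and nuclear cofactor lists (0.0081) were positive. All deleted values exceeded all wildtype values in 2 of the 80 (2.84% of all genes tested), Axin2 and Tle4, and below in 1 (2.05% of all genes tested), Ctnnbip1.

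Among the scaffold paralogs (4 of 5 tested, median difference 0.20), Axin2 had the widest gap. Axin2, a scaffold like Axin1 and itself a target of beta-catenin, was at 32.0, 94.9 and 37.9 FPKM in the deleted libraries, against 20.2, 26.4, 18.6 and 19.9 FPKM in the wildtype libraries. All deleted libraries were above all wildtype libraries, and deleted replicate 2 stood far above the rest. The difference was 1.17 (SE 0.34, limma adjusted p = 0.795, limma unadjusted p = 0.00974) and was 0.70 without deleted replicate 2. Its exact permutation p was 0.0286, not adjusted for the number of genes and the smallest that 35 splits allow. The difference of Axin1 was -0.13, with the same limma adjusted p but a limma unadjusted p of 0.273. Amer2, entered under its older symbol Fam123a and a relative of the scaffold gene Amer1, was at 2.50, 1.17 and 1.83 FPKM in the deleted libraries, against 2.17, 1.89, 5.07 and 2.58 FPKM in the wildtype libraries, a difference of -0.43 (SE 0.29, limma adjusted p = 0.795). It was -0.25 without deleted replicate 2, -0.20 without wildtype replicate 3 and -0.024 without both.

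Casein kinase genes (8 of 8 tested, median difference -0.026) ranged from -0.29 to 0.076 in their differences, of which 7 were negative, against 3 with median-of-ratios scaling and 2 with quantile normalization. Csnk1g2 averaged 75.8 ± 15.5 FPKM (SD, n = 3) in the deleted and 92.1 ± 12.4 FPKM (SD, n = 4) in the wildtype libraries, a difference of -0.29 (SE 0.16, limma adjusted p = 0.795). That was -0.44 without deleted replicate 1, -0.18 without deleted replicate 2 and -0.091 without deleted replicate 2 and wildtype replicate 3. Csnk1e, the epsilon isoform, averaged 45.3 ± 0.809 and 43.0 ± 3.59 FPKM, a difference of 0.076 (SE 0.095). The subunits of protein phosphatase 2A, which can reverse the phosphorylation, had a median difference of -0.065, against -0.051 over all genes tested. Their differences were negative in 10 of 10, but in 6 of 10 with median-of-ratios scaling, in 4 of 10 with quantile normalization and in 6 of 10 without deleted replicate 2, and 60.7% of all genes tested had a negative difference. The 2 of smallest p were the regulatory subunit Ppp2r5d, with a difference of -0.20 (SE 0.11), and the catalytic subunit Ppp2ca, with -0.18 (SE 0.13), each with a limma adjusted p of 0.795. Without deleted replicate 2 these were -0.11 for Ppp2r5d and -0.10 for Ppp2ca, and with a weight per library Ppp2ca was at -0.021.

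Genes that restrain the complex or turn over Axin (10 of 10 tested) had a median difference of -0.069, 4 positive and 6 negative. Dvl1, a Dishevelled gene that carries the Wnt signal to Axin, averaged 18.3 ± 2.45 FPKM (SD, n = 3) in the deleted and 20.6 ± 0.528 FPKM (SD, n = 4) in the wildtype libraries, a difference of -0.17 (SE 0.10). Frat1, which binds glycogen synthase kinase 3, averaged 1.35 ± 0.600 and 1.89 ± 0.490 FPKM, a difference of -0.31 (SE 0.23), with a limma adjusted p of 0.795 for both genes. Without deleted replicate 2 the differences were -0.099 for Dvl1 and -0.15 for Frat1; without deleted replicate 1 they were -0.27 and -0.51, and with a pseudocount of 0.1 FPKM that of Frat1 was -0.50. Of the ubiquitin ligase genes (7 of 7 tested, median -0.056), Fbxw11, the paralog of Btrc, averaged 37.9 ± 1.67 FPKM (SD, n = 3) in the deleted and 36.6 ± 1.93 FPKM (SD, n = 4) in the wildtype libraries, a difference of 0.049 (SE 0.087). Its level was 4.13 to 4.83 times that of Btrc in the deleted and 3.98 to 4.68 times in the wildtype libraries. Siah1b averaged 7.02 ± 2.68 and 9.10 ± 0.417 FPKM and was at 3.93 FPKM in deleted replicate 2; its difference was -0.40 (SE 0.23), or -0.079 without that library. Rbx1, the RING subunit of the SCF ligase, differed by -0.26 (SE 0.16), or -0.11 without deleted replicate 2.

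In the adherens junction list (15 of 16 tested) the median difference was -0.031, with 7 positive and 8 negative. Cdh1, which encodes E-cadherin, was at 36.6, 23.5 and 24.2 FPKM in the deleted libraries, against 26.9, 35.2, 8.30 and 36.0 FPKM in the wildtype libraries. Wildtype replicate 3 was the low one, and the difference of Cdh1 was 0.23 (SE 0.47) with it and -0.23 without it. Ctnnd2, a delta-catenin gene, and Nectin2, entered as Pvrl2, differed by 0.29 (SE 0.19) and -0.23 (SE 0.16), with a limma adjusted p of 0.795 for both. Ctnnd2 was at 0.17 without wildtype replicate 3 and 0.45 with a pseudocount of 0.1 FPKM, and Nectin2 at -0.14 without deleted replicate 2 and -0.40 without deleted replicate 1.

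In the desmosome list (9 of 13 tested) the median difference was 0.36, with 7 positive and 2 negative, and 0 passed the threshold. The median was 0.037 without wildtype replicate 3. Pkp1, a plakophilin gene, was at 1.59, 4.31 and 3.04 FPKM in the deleted libraries, against 1.07, 1.89, 0.329 and 0.656 FPKM in the wildtype libraries, so the groups overlapped. Its difference was 1.00 (SE 0.33, limma adjusted p = 0.795, limma unadjusted p = 0.0178, exact permutation p = 0.0857). At this low level the difference depended on the scale: it was 1.62 with a pseudocount of 0.1 FPKM. It was 0.59 without deleted replicate 2 and wildtype replicate 3. Dsp, which encodes desmoplakin and anchors plakoglobin to keratin, was at 7.88, 18.9 and 9.06 FPKM in the deleted libraries, against 6.51, 10.7, 2.23 and 6.53 FPKM in the wildtype libraries, a difference of 0.83 (SE 0.45, limma adjusted p = 0.795). Dsp was highest in deleted replicate 2 and lowest in wildtype replicate 3, and its difference was 0.48 without the first, 0.48 without the second and 0.12 without both, the last chosen after the data were seen. The summed level of 4 epithelial markers was 156 to 250 FPKM in the deleted libraries and 59.1 FPKM in wildtype replicate 3, against 212 to 263 FPKM in the other 3 wildtype libraries, and its part in the desmosome values was not tested. Jup, the plakoglobin gene, did not share the range of Dsp: its highest library was 1.38 times its lowest.

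Nuclear cofactors (17 of 17 tested) had a median difference of -0.042, 7 positive and 10 negative. Tle4, a Groucho co-repressor that TCF/LEF factors bind in the absence of beta-catenin, was at 12.7, 15.3 and 14.2 FPKM in the deleted libraries, against 11.0, 11.4, 10.6 and 11.2 FPKM in the wildtype libraries. The groups did not overlap, and the difference was 0.32 (SE 0.098, limma adjusted p = 0.795, limma unadjusted p = 0.0123). Its exact permutation p was 0.0286, again unadjusted, for a gene named because its p was among the 2 smallest of the list. Ctnnbip1, which encodes an inhibitor that keeps beta-catenin from TCF, was at 21.1, 16.7 and 21.2 FPKM in the deleted libraries, against 23.7, 21.4, 23.2 and 23.8 FPKM in the wildtype libraries. Its groups did not overlap either, by 21.2 against 21.4 FPKM, and the difference was -0.22 (SE 0.11, limma adjusted p = 0.795; exact permutation p = 0.0571), or -0.11 without deleted replicate 2.

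**Figure D5:**
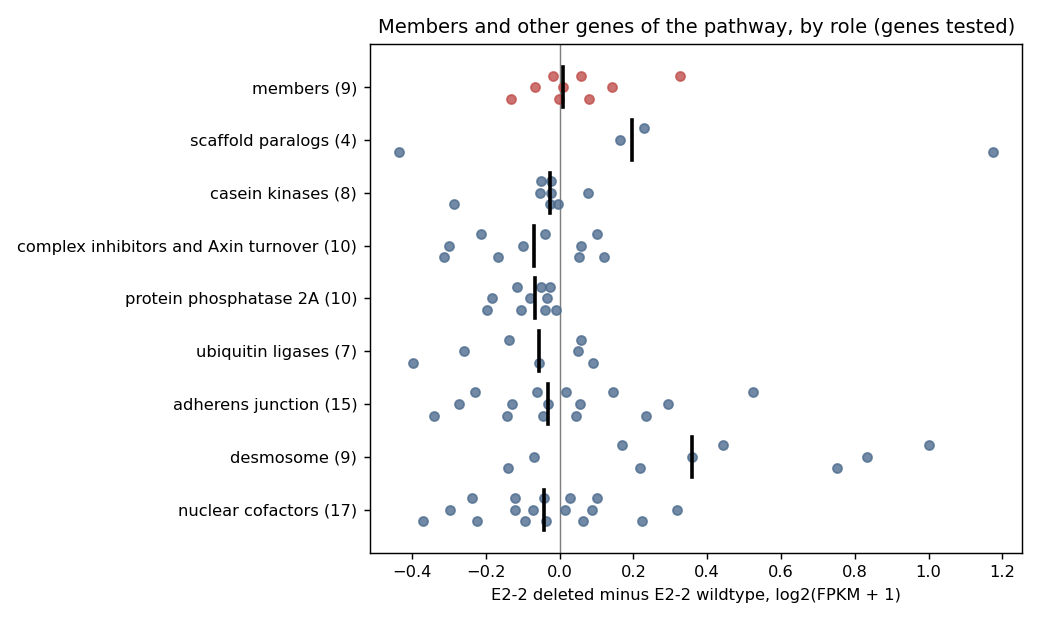
Difference, E2-2 deleted minus E2-2 wildtype on the log2(FPKM + 1) scale, of each tested gene (1 point each, spread vertically only to be visible) of the members (red) and of the 8 lists by role (blue), with the median of each list as a black bar and the number of genes in brackets. No gene shown passed the threshold; the medians run from -0.069 to 0.36, and Axin2 is the point at 1.17.

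Some members share genome with other genes in the GENCODE annotation of GRCm38, where exons of Ulk4 overlap those of Ctnnb1 and exons of Lrrtm2 those of Ctnna1, each on the opposite strand, as do exons of 9130221H12Rik with those of Gsk3a. The labels do not say that the counting used strand, so reads of the overlaps cannot be assigned. Ulk4 was at 1.02 to 2.22 FPKM and Lrrtm2 at 0.125 to 0.401 FPKM, against at least 408 FPKM for Ctnnb1 and 154 FPKM for Ctnna1, and 9130221H12Rik was at 7.73 to 9.62 FPKM beside 43.3 to 50.8 FPKM for Gsk3a.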

How the data were processed

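RNA of cultured kidney, 7 libraries in all, was prepared with Trizol, enriched for poly-A and made into libraries with Illumina's TruSeq RNA kit, per the labels' protocols. The submitters' processing notes name Cufflinks 2.0.2, TopHat2 2.0.4 and CASAVA 1.8.2, with no role for any. Genome build: not given in the sources used here. The authors deposited 1 table per library with FPKM, its interval and a status, per the file headers.

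Each table had 23699 entries. In E2-2 deleted replicate 2, 25 symbols had been turned into dates and were restored from another table with identical loci. Entries of one symbol were summed; a gene was dropped if any table gave it a status other than OK or its locus was under 200 bases. The tables hold no counts. Depth was inferred from the interval: fragments are the square of 2 times the FPKM over the distance to the upper bound. Of entries with a single start and under 300 such fragments, 78.9% to 80.1% were whole to within 0.05, where chance would give 10%. Intervals cover counting error only.

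Genes with a mean of at least 1 FPKM were fitted with limma 3.58.1 in R 4.3.3 (log2(FPKM + 1), eBayes with trend, 2-sided). The script was tested on simulated data whose changes were far larger than the differences of the members. That test does not show whether differences of the members' size would be found. Single genes were also compared by an exact permutation test over 35 splits. Figures and tables used Python 3.11.15. Replicates are numbered in order of accession. Named genes are the 9 members, the 2 genes of smallest p of each list, Axin2, Cdh1 and Fbxw11, and the 5 genes most like Ctnnb1 (predicted genes passed over). The members and lists were chosen with earlier results of these data known. Alternatives were another pseudocount, other filters and scalings, library weights, the name prefix as a term, and leaving out libraries. No 2 libraries held the same values.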

Additional observations from a re-analysis of the deposited data

Results flagged for a closer look

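Of 32 genes named, 1 had a wildtype library far from the other 3 by Dixon's ratio at the 95% level, which chance reaches in about 1 of 20 groups. Btrc was at 7.22 FPKM in E2-2 wildtype replicate 3 and at 9.11 to 9.27 FPKM in the other 3 wildtype libraries (Dixon's ratio 0.924).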

How the results depend on the processing

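The differences of Ctnnb1 (0.17 to 0.46), Apc (0.027 to 0.19) and Axin1 (-0.25 to -0.051) kept their sign under all 17 alternatives, and no member passed the threshold under any (smallest limma adjusted p = 0.448, for Axin1). Some of the 17 could not change a member's difference: the other filters, and taking the highest entry of a symbol in place of the sum. The lowest value of Ctnnb1 was that of the BI libraries alone. With each library left out in turn, the difference was 0.25 to 0.41 for Ctnnb1, -0.0067 to 0.17 for Jup, -0.039 to 0.072 for Ctnna1, 0.067 to 0.19 for Apc, -0.25 to -0.056 for Axin1, -0.058 to 0.012 for Csnk1a1, -0.13 to -0.020 for Gsk3a, 0.033 to 0.12 for Gsk3b and -0.081 to 0.090 for Btrc. Other reversals of sign are given below, and their cause was not tested. With a weight per library, Jup was -0.11, Ctnna1 -0.066, Csnk1a1 0.068, Btrc 0.020 and Cdh1 -0.060. With the prefix as a term Ctnna1 was -0.015. With median-of-ratios scaling Csnk1a1 was 0.033 and Btrc 0.043, and with quantile normalization Csnk1a1 was 0.11 and Gsk3a 0.0011. Alternatives added after the data were seen left out deleted replicate 2 and wildtype replicate 3 together (Jup -0.053, Ctnna1 -0.073, Csnk1a1 0.00050, Btrc 0.012, Cdh1 -0.12) or kept the BI libraries alone (Gsk3a 0.032, Gsk3b -0.051, Csnk1e -0.010, Fbxw11 -0.0012, Cdh1 -0.066). Leaving out single libraries, Cdh1 was -0.23 (without wildtype replicate 3) to 0.44, against 0.23 with all 7.

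Over all genes tested, 0 passed in most settings, 4 passed with no filter (Ndufs5, Pgc, Gm10640 and Tmprss11bnl), 1 with a weight per library (9130015A21Rik) and 1 without deleted replicate 2 and wildtype replicate 3 (Igfbp6); these were named after their values were seen, and none is a member. No paired analysis was possible because the labels give no replicate numbers that the genotypes share. Low genes such as Frat1 and Pkp1 are measured less precisely than the members.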
